A study of Mus musculus with 4 samples.

Results

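The genes described here are 47 cell cycle and DNA replication genes, out of 17178 genes with a symbol and a probe on the array. They were chosen by symbol from known function, with earlier results of these data known. Every noncontrol probe whose transcript carries one of these symbols was taken. By role they are 19 genes of DNA replication and nucleotide supply, 23 genes of mitosis and 5 regulators of entry into the cycle. Of these 47 members, 46 were measured well above background: all 19 replication genes, 22 of the mitotic genes and all 5 regulators. Expression was compared between both lymph nodes that drain the pancreas, each taken from 4 female NOD mice aged 12 weeks. The NOD mouse is an inbred strain that develops autoimmune diabetes, and the labels name no treatment and no genetic change beyond the strain. On each two-colour array, 1 per mouse, red Cy5 carried RNA of the gastric node (the left pancreatic node) and green Cy3 carried RNA of the pancreatico-duodenal node (the right pancreatic node), both from that mouse. Every ratio below is the log2 of gastric over pancreatico-duodenal node, so a positive value means more in the gastric node.

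No dye swap was made, so a dye effect and a node effect cannot be told apart. Probes well above background made up 67.1% to 71.4% in the gastric channel and 59.6% to 62.6% in the pancreatico-duodenal one, with 0 saturated spots. The precision is limited by the number of arrays, 4, and p-values measure the spread between these mice. Each node was homogenised whole, so fewer cells of a type and less RNA per cell cannot be told apart.

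Cells entering the cycle switch on replication genes before S phase, largely through E2F transcription factors, and mitotic genes later, through complexes that include B-Myb and FoxM1. In a lymph node most lymphocytes are resting, and RNA of these genes comes mainly from the minority that divide, such as activated T cells and the B cells of germinal centres. The levels of such genes are therefore widely read as a measure of how much proliferation a lymphoid tissue holds.

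The promoter sequences of 5 members are printed because replication and mitotic genes, compared throughout below, hold different short words in their promoters. RefSeq windows of 250 bases before and 50 after a transcript start (GRCm38.p6) were found for 39 of the 47 members, by symbol. Both strands were searched for E2F words (TTTCCCGC, TTTGGCGC, TTTCGCGC or TTTGCCGC), for words of the cell cycle genes homology region, CHR (TTTGAA or TTCGAA), and for the CCAAT box. E2F words stood in 8 of 17 replication windows (47.1%), in 1 of 19 mitotic windows (5.26%) and in 2.6% of all genes with a window. CHR words stood in 4 of 17 replication windows (23.5%), in 15 of 19 mitotic windows (78.9%) and in 21.7% of all. The CCAAT box stood in 12 of 17 (70.6%), 17 of 19 (89.5%) and 41.1%. A match is a description of the letters only. The lines below give the 180 bases before the start, 5′ to 3′ on the gene's strand, with every match in capitals. Pcna is shown as a called gene, Mcm5 and Cdc6 as the replication members with an E2F word in this stretch and the highest ratio in mouse 3, and Cdc20 and Cdk1 as the same for mitotic members with a CHR word. They were chosen after their values were seen.
Pcna, chr2:132253181-132253360, minus strand: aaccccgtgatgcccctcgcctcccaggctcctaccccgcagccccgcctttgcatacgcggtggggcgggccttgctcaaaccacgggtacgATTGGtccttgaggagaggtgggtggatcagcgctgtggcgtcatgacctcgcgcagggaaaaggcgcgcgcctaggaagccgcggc
Mcm5, chr8:75109329-75109508, plus strand: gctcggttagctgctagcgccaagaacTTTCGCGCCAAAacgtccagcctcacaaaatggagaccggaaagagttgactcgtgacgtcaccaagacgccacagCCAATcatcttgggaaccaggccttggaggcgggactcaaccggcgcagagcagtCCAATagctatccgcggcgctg
Cdc6, chr11:98907971-98908150, plus strand: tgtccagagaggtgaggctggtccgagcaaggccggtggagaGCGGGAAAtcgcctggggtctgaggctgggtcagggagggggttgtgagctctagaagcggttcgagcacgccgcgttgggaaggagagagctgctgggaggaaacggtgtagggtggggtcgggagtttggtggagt
Cdc20, chr4:118437344-118437523, minus strand: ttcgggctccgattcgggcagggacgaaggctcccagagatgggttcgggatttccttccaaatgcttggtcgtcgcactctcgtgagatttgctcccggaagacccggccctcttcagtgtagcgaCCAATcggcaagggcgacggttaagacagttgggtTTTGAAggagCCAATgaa
Cdk1, chr10:69352913-69353092, minus strand: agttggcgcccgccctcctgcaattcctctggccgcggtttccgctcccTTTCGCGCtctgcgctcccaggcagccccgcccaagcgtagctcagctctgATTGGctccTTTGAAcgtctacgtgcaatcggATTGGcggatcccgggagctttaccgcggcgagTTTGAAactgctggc
In these stretches Pcna holds a CCAAT box alone. Mcm5 holds overlapping E2F words and a pair of CCAAT boxes, and Cdc6 holds an E2F word. Cdc20 and Cdk1 hold CHR words within 20 bases of the start with CCAAT boxes nearby, and Cdk1 is the mitotic member that also holds an E2F word.

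Among the members, 2 genes passed an adjusted p of 0.05 in limma with a higher gastric level, and 0 passed with a lower one. Both are replication genes, and both differences are small with loess; with arrays centred on their median the log2 ratios were 0.99 for Pcna and 0.96 for Mcm4, where the median of all features was 0.32. Over all 21320 features tested, 3.09% were called higher and 4.45% lower, 7.54% in either direction, so the members' share called higher, 4.35%, is near the background. At an unadjusted p under 0.05 in limma stood 5 of the 46 members (10.9%), namely Pcna, Mcm4, Ect2, Prim1 and Cenpf, against 30.7% of all features. The count of members called higher depended on the normalization: it was 0 with the scanner software's own ratio, 39 with each array centred on its median in place of loess, and 13 with centring on the median of the tested features. As shares these are 84.8% and 28.3% of the members, against 60.1% and 30.0% of all features called higher under the same settings.

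Pcna, the sliding clamp that holds DNA polymerases on the template, had log2 ratios of 0.31, 0.20, 0.49 and 0.34 in mice 1 to 4. All 4 mice lay above 0. The mean was 0.33 ± 0.12 (SD, n = 4), a 1.26-fold higher level with a 95% interval of 0.19 to 0.48 on the log2 scale and an adjusted p of 0.0393 in limma. Mcm4, a subunit of the Mcm2 to Mcm7 helicase that unwinds DNA at the fork, had log2 ratios of 0.50, 0.18, 0.35 and 0.28. It too lay above 0 in every mouse, with a mean of 0.33 ± 0.13 (SD, n = 4), 1.25-fold higher, and an adjusted p of 0.0426 in limma. Both calls were lost when mouse 2, mouse 3 or mouse 4 was left out, with adjusted p-values of 0.141, 0.0965 and 0.173 for Pcna and 0.145, 0.109 and 0.172 for Mcm4. Leaving out any of these mice left at most 3 of all 21320 features called in either direction.

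**Figure D1:**
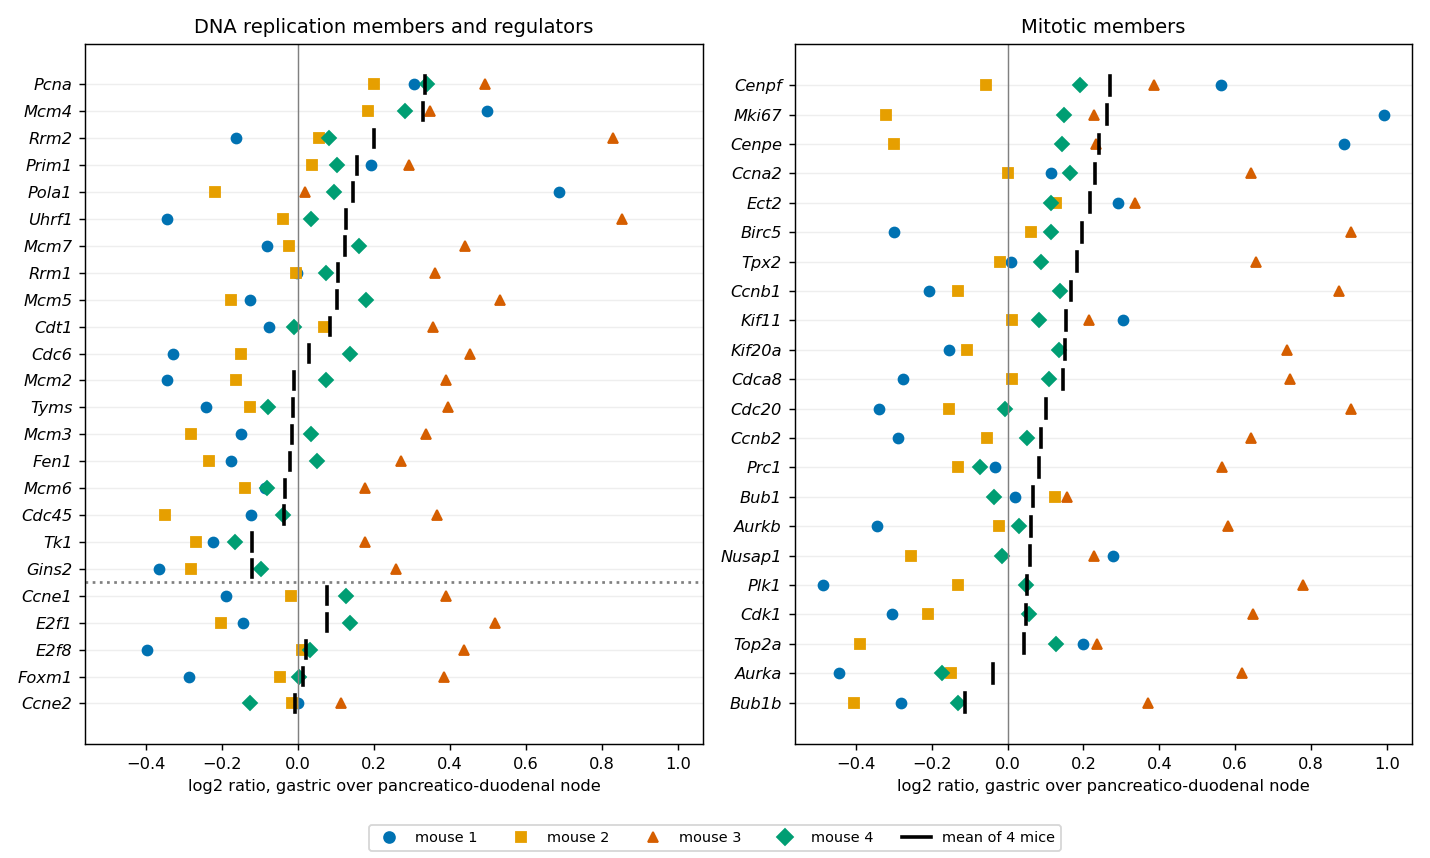
Log2 ratio of gastric over pancreatico-duodenal node (x axis) for each of the 46 measured members (y axis), with replication genes and, below the dotted line, regulators on the left and mitotic genes on the right. Symbols are mice and black bars are means of 4 mice. In mouse 3 all 46 members lie above 0, and in mice 1 and 2 most lie below, with loess and by the brightest probe of each gene.

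The other helicase subunits did not pass the test, and their difference from Mcm4 was not tested. Mcm2 had log2 ratios of -0.35, -0.16, 0.39 and 0.07 in mice 1 to 4. Mcm3 had -0.15, -0.28, 0.34 and 0.03, and Mcm5 had -0.13, -0.18, 0.53 and 0.18. Mcm6 had -0.09, -0.14, 0.18 and -0.08, and Mcm7 had -0.08, -0.03, 0.44 and 0.16. All 5 lay below 0 in mice 1 and 2 and above 0 in mouse 3, and their means over mice ran from -0.03 for Mcm6 to 0.12 for Mcm7. Mcm4 therefore shared its sign with the other subunits in mouse 3 and, except for Mcm6, in mouse 4.

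Of the genes that supply deoxynucleotides, Rrm2, the regulated subunit of ribonucleotide reductase, had the third highest mean of the replication members. Its log2 ratios were -0.16, 0.05, 0.83 and 0.08, with a mean of 0.20 ± 0.43 (SD, n = 4) and an adjusted p of 0.437 in limma. Mouse 3 alone was far from 0. Its partner subunit Rrm1 had log2 ratios of -0.00, -0.01, 0.36 and 0.07. Tyms, thymidylate synthase, had -0.24, -0.13, 0.40 and -0.08, and its dimmer second probe gave a mean of 0.02 against -0.01. Tk1, the thymidine kinase of S phase, had log2 ratios of -0.22, -0.27, 0.18 and -0.17 and with Gins2 had the lowest mean of the replication members, -0.12 ± 0.20 (SD, n = 4). In all of these the highest value was in mouse 3.

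Gins2, Cdc45, Cdc6, Cdt1, Uhrf1 and Fen1 were each highest in mouse 3. Gins2, a subunit of the GINS complex that activates the helicase, had log2 ratios of -0.37, -0.28, 0.26 and -0.10, with a mean of -0.12 ± 0.28 (SD, n = 4). Its partner Cdc45 had -0.12, -0.35, 0.36 and -0.04 and the third lowest mean, -0.04 ± 0.30 (SD, n = 4). Cdc6, which loads the helicase, had log2 ratios of -0.33, -0.15, 0.45 and 0.14, and its fellow loader Cdt1 had -0.08, 0.07, 0.36 and -0.01. Uhrf1, which guides maintenance of DNA methylation behind the fork, had the widest spread of the replication members, with -0.34, -0.04, 0.85 and 0.03. Fen1, the nuclease that trims Okazaki fragments, had -0.18, -0.23, 0.27 and 0.05.

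Prim1 and Pola1 were above 0 in mouse 1 as well. Prim1, the catalytic primase subunit, had log2 ratios of 0.19, 0.04, 0.29 and 0.10, above 0 in 4 of 4 mice, with a mean of 0.16 ± 0.11 (SD, n = 4) and an adjusted p of 0.136 in limma. Pola1, the polymerase that extends its primers, had 0.69, -0.22, 0.02 and 0.10. It was the member nearest to 0 in mouse 3, and it was highest in mouse 1.

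No mitotic member was called, by limma at an adjusted p under 0.05. An unadjusted p under 0.05 in limma was reached by 2 of 22 (9.09%), against 30.7% of all features. The highest means belonged to Cenpf, Mki67 and Cenpe, large proteins of the kinetochore and of the chromosome surface. Cenpf had log2 ratios of 0.56, -0.06, 0.39 and 0.19 in mice 1 to 4, with a mean of 0.27 ± 0.27 (SD, n = 4) and an adjusted p of 0.151 in limma. Mki67, the Ki-67 antigen used as a histological marker of cycling cells, had 0.99, -0.32, 0.23 and 0.15, with a mean of 0.26 ± 0.54 (SD, n = 4). Cenpe, a kinetochore motor, had 0.89, -0.30, 0.23 and 0.14. All 3 were highest in mouse 1 and below 0 in mouse 2, so their means rest on mouse 1 more than on mouse 3. For Cenpe, further kept probes, both dimmer, gave means of 0.03 and -0.06 against 0.24 for the brightest.

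Ect2, an exchange factor that starts the cleavage furrow, was nearest to the threshold among the mitotic members. Its log2 ratios were 0.29, 0.13, 0.34 and 0.11, all above 0, with a mean of 0.22 ± 0.11 (SD, n = 4) and an adjusted p of 0.0728 in limma. The lowest means belonged to Bub1b, Aurka and Top2a. Bub1b, a spindle checkpoint kinase, had log2 ratios of -0.28, -0.40, 0.37 and -0.13. Aurka, the centrosome kinase Aurora A, had -0.44, -0.15, 0.62 and -0.17. Top2a, the topoisomerase that untangles sister chromosomes, had 0.20, -0.39, 0.24 and 0.13. Bub1b and Aurka were above 0 in mouse 3 only.

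Cdk1, Ccnb1, Ccna2, Plk1, Birc5, Cdc20 and Kif20a were each highest in mouse 3. Cdk1, the mitotic kinase, had log2 ratios of -0.30, -0.21, 0.65 and 0.06. Its cyclin Ccnb1 had -0.21, -0.13, 0.87 and 0.14, and Ccna2, the cyclin of S and G2 phase, had 0.12, 0.00, 0.64 and 0.16. Plk1, the Polo kinase, had -0.49, -0.13, 0.78 and 0.05. In all 4 the highest mouse was mouse 3, and the lowest was mouse 1 or, for Ccna2, mouse 2.
Birc5, survivin, which belongs to the chromosomal passenger complex, had the highest value of any member in mouse 3, with log2 ratios of -0.30, 0.06, 0.91 and 0.11. Cdc20, an activator of the anaphase-promoting complex, had -0.34, -0.15, 0.90 and -0.01. Kif20a, a motor of the central spindle, had -0.15, -0.11, 0.74 and 0.13. Of the other mitotic members, Aurkb, Cdca8, Ccnb2, Prc1 and Tpx2 were highest in mouse 3 and had means of 0.06 to 0.18. Kif11 and Nusap1 were highest in mouse 1, and Bub1 varied least of the mitotic members by its brightest probe, from -0.04 to 0.16. The dimmer kept probe of Bub1 had log2 ratios of 0.35, -0.03, 0.30 and 0.12.

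Ttk, a kinase of the spindle checkpoint, was not kept. It was well above background on 2 arrays in the gastric channel and on none in the other, and its unfiltered log2 ratios of 0.09, 0.05, 0.14 and 0.11 are not read further.

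Of the 5 regulators none passed the test in limma, and none had an unadjusted p under 0.05. E2f1, an activating E2F factor, had log2 ratios of -0.14, -0.20, 0.52 and 0.14, with a mean of 0.08 ± 0.33 (SD, n = 4), but its dimmer second probe gave a mean of -0.25. Ccne1, the cyclin of S phase entry, had -0.19, -0.02, 0.39 and 0.13. E2f8, a repressing E2F factor, had -0.40, 0.01, 0.44 and 0.03. Foxm1, which drives mitotic genes, had -0.29, -0.05, 0.38 and 0.00. Ccne2 had -0.00, -0.02, 0.11 and -0.13, and its dimmer second probe had the other sign, 0.07 against -0.01. Mouse 3 was again the highest for all 5.

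The mouse with the highest ratio was thus the same for most members. Mouse 3 was the highest of the 4 for 39 of 46 members (84.8%) against 27.4% of all features, and mouse 1 for the other 7, which are Mcm4, Pola1, Mki67, Cenpe, Cenpf, Kif11 and Nusap1. Mice 2 and 4 were the highest for none. The members above 0 were 14 of 46 in mouse 1 (30.4%), 12 in mouse 2 (26.1%), 46 in mouse 3 (100%) and 33 in mouse 4 (71.7%). Over all features these shares were 55.1%, 55.9%, 53.0% and 55.1%. The spread between mice was correspondingly wide: the median SD was 0.31 over the members and 0.39 over the mitotic members, against 0.12 over all features. The SDs were not compared at like brightness: a mean log2 intensity up to 7 held 5830 of the 21320 features and 3 of the 46 members. The counts by mouse use the brightest probe of a gene. In mouse 3 the second kept probe of E2f1 was at -0.06 and the dimmer kept probes of Cenpe were at -0.04 and -0.09. The dimmer kept probe of Bub1 was highest in mouse 1. The counts also depend on the centring. With arrays centred on their median the replication medians were 0.30, 0.39, 0.90 and 0.61. The mitotic ones were 0.31, 0.32, 0.94 and 0.55, against 0.31, 0.30, 0.27 and 0.35 over all features. Mouse 3 stayed the highest for replication and mitotic members. This pattern was noticed in the data and carries no test. The median of the members' means was 0.08, and 35 of 46 means (76.1%) lay above 0, against a median of 0.03 and 58.1% over all features.

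**Figure D2:**
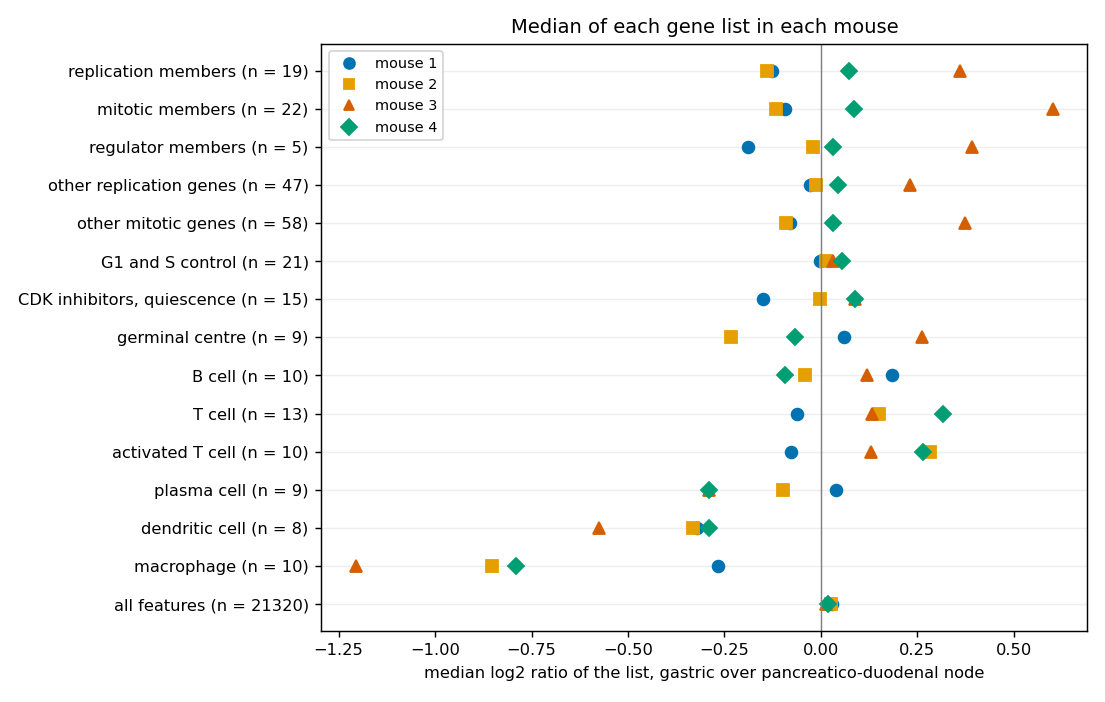
Median log2 ratio of gastric over pancreatico-duodenal node (x axis) of each gene list (y axis, n is the number of measured genes), with symbols for the 4 mice. The cell cycle lists sit highest in mouse 3, at 0.36 for replication and 0.60 for mitotic members, while the G1 and S control list stays between -0.00 and 0.06. Exocrine pancreas and adipocyte lists are off this scale and not drawn. Some further lists, among them checkpoint and repair genes, are not drawn either.

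Replication and mitotic members were compared within each array. The median of the replication members was -0.13, -0.14, 0.36 and 0.07 in mice 1 to 4, a mean of 0.04 ± 0.23 (SD, n = 4). The median of the mitotic members was -0.09, -0.12, 0.60 and 0.09, a mean of 0.12 ± 0.33 (SD, n = 4). With loess both groups lay below 0 in mice 1 and 2 and above 0 in mice 3 and 4. The signs in mice 1 and 2 depended on the centring. With centring on the median of the tested features, the replication medians there were -0.00 and 0.09. The mitotic ones were -0.00 and 0.02. With loess, replication minus mitotic was -0.04, -0.02, -0.24 and -0.01, below 0 in 4 of 4 mice, with a mean of -0.08 ± 0.11 (SD, n = 4). Mouse 3 supplied most of that mean: without it the difference was -0.02 ± 0.01. With arrays centred on their median in place of loess, the difference was -0.00, 0.07, -0.05 and 0.05, so its sign turned in mice 2 and 4. No test was run on these medians, since the members were chosen with results of these data known. Without mouse 3 the replication median was -0.07 ± 0.12 and the mitotic median -0.04 ± 0.11, and 20 of the 46 members had a mean of the other sign.

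The medians of further replication and mitotic genes were also highest in mouse 3. Of 47 other measured replication genes none was called in limma, with 8 at an unadjusted p under 0.05, and their median was -0.03, -0.01, 0.23 and 0.04 in mice 1 to 4. The brightest were Rfc2, of the clamp loader, at -0.06 ± 0.15 (SD, n = 4) and Pold1, the catalytic subunit of DNA polymerase delta, at 0.16 ± 0.19. Of 58 other measured mitotic genes none was called in limma, with 6 (10.3%) at an unadjusted p under 0.05. Their median was -0.08, -0.09, 0.37 and 0.03. Mouse 3 was the highest for 35 of the 47 (74.5%) and for 45 of the 58 (77.6%), against 27.4% of all features. The difference of these medians, replication minus mitotic, was 0.05, 0.08, -0.14 and 0.01, so the sign seen for the members in mice 1, 2 and 4 was not seen here.
The brightest other mitotic genes were Smc4, a condensin subunit, and Bub3, of the spindle checkpoint. Smc4 had log2 ratios of 1.69, 0.26, -0.26 and 0.45, far the highest in mouse 1 as for Mki67, Cenpe and Pola1, and Bub3 had -0.09, -0.10, 0.16 and 0.06. Among genes noted after their values were seen, Orc4, of the origin recognition complex, had 0.84 in mouse 1 and Cdca3, a trigger of mitotic entry, had 0.82 in mouse 3.

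The median of genes that control G1 and S entry stayed near 0 in all 4 mice. Of 21 measured genes none was called in limma. At an unadjusted p under 0.05 in limma stood 4 (19.0%), against 30.7% of all features. Their median was -0.00, 0.01, 0.03 and 0.06. The brightest, the D-type cyclins Ccnd2 and Ccnd3, each had a mean of -0.11. Inside this list, E2f2, an activating E2F factor, had log2 ratios of 0.08, 0.35, 0.71 and 0.28, and Mybl2, the gene of B-Myb, had -0.58, -0.18, 0.65 and -0.08. Of 13 measured checkpoint and repair genes none was called in limma, with 5 (38.5%) at an unadjusted p under 0.05. Their median was -0.01, 0.04, 0.14 and 0.08 in mice 1 to 4. The brightest, Atrip and Blm, had means of 0.07 and 0.17.

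Genes that hold cells out of the cycle were called in both directions. Of 15 measured genes of the cyclin-dependent kinase inhibitor and quiescence list, 3 were called higher in the gastric node and 3 lower. Over all features 3.09% were called higher and 4.45% lower. The list was chosen with earlier results of these data known. Cdkn1a, the p21 inhibitor induced by p53, had log2 ratios of -0.72, -0.67, -0.63 and -0.33, a mean of -0.59 ± 0.17 (SD, n = 4) and an adjusted p of 0.0254 in limma. Cdkn2b, the p15 inhibitor of Cdk4 and Cdk6, had -0.91, -0.87, -0.94 and -0.40, a mean of -0.78 ± 0.26 and an adjusted p of 0.0257 in limma. Cdkn2a, which encodes p16 and p19Arf, had -0.23, -0.48, -0.37 and -0.42, with an adjusted p of 0.0303 in limma. All 3 were lower in the gastric node in every mouse.
Cdkn1b, the p27 inhibitor abundant in resting lymphocytes, was higher, with log2 ratios of 0.37, 0.48, 0.40 and 0.24, a mean of 0.37 ± 0.10 (SD, n = 4) and an adjusted p of 0.0292 in limma. Ccng2, a cyclin linked to cell cycle arrest, had 0.38, 0.35, 0.18 and 0.21, with an adjusted p of 0.0442 in limma. Btg1, an antiproliferative gene, had 0.22, 0.19, 0.25 and 0.21, with an adjusted p of 0.0428 in limma. The other 9 genes of the list did not pass, and Trp53 itself was within 0.1 of 0 in every mouse. None of the 6 passed without mouse 2, mouse 3 or mouse 4, at adjusted p-values of 0.0884 to 0.184 in limma, and Ccng2 did not pass without mouse 1 either, at 0.0518.

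**Figure D3:**
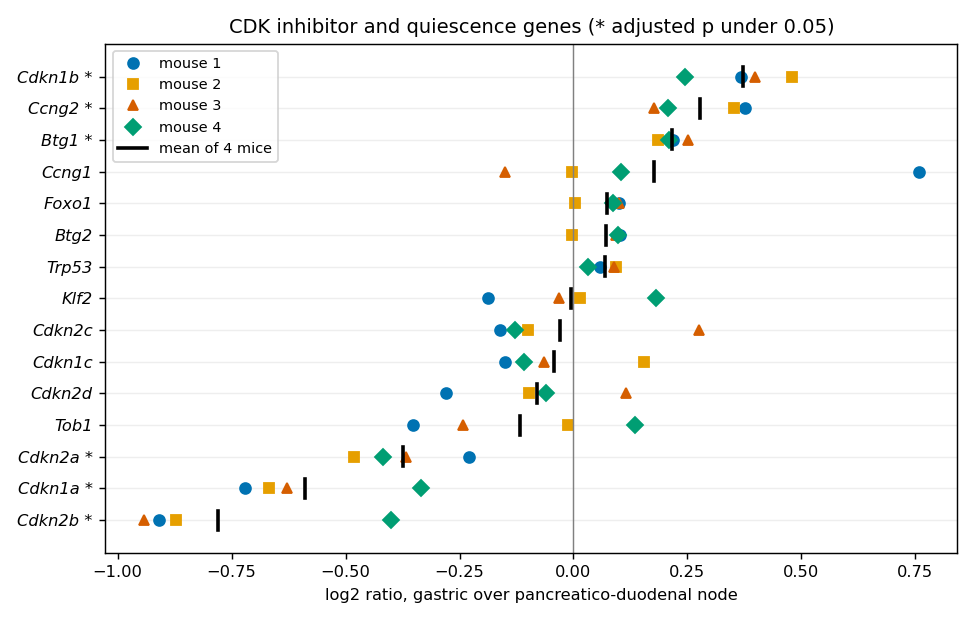
Log2 ratio of gastric over pancreatico-duodenal node (x axis) of the 15 measured cyclin-dependent kinase inhibitor and quiescence genes (y axis). Symbols are mice, bars are means of 4 mice and asterisks mark an adjusted p under 0.05 in limma. Cdkn1a, Cdkn2a and Cdkn2b lie below 0 and Cdkn1b, Ccng2 and Btg1 above 0 in all 4 mice.

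Markers of the cells a node and its surroundings can hold were read beside these values, and their part in the cell cycle values was not tested. The exocrine pancreas list had medians of -0.27, 0.24, -5.20 and 0.85 in mice 1 to 4, with its 10 genes from -6.75 to -3.45 in mouse 3, the mouse where the members were highest. It was far below the members of that mouse, and the brightest genes were the proteases Cela3b and Prss3, at -5.62 and -5.64 there. The adipocyte list had medians of 2.05, -2.03, 0.52 and -1.69, highest in mouse 1, with Cfd at 2.74 there and Fabp4 at 1.72. Mki67, Cenpe and Pola1 were also highest in mouse 1. Most members were not: mouse 1 was the highest for 7 of 46 (15.2%), against 38.2% of all features. In that mouse 14 of the 46 members (30.4%) were above 0, and the members' median was -0.15.
Germinal centre genes had a median of 0.06, -0.23, 0.26 and -0.07. In mouse 3, 8 of 9 were above 0 (88.9%), against 53.0% of all features. This share was not particular to them. It was 92.3% for the T cell list, 80% for the B cell list, 80% for the activated T cell list and 33.3% for plasma cell genes. Over mice, 4 of the 9 means lay above 0, and the median of the means was -0.07. The brightest of these genes, Bcl6 and Fas, had means of 0.16 and 0.17. Activated T cell genes had medians of -0.08, 0.28, 0.13 and 0.26, highest in mouse 2, with 1 of 10 called higher. Plasma cell genes had medians of 0.04, -0.10, -0.29 and -0.29, with 2 of 9 called lower. The B cell list had medians of 0.18, -0.04, 0.12 and -0.09, with Cd79b at 0.07 and Ms4a1 at 0.34 on average. The T cell list had -0.06, 0.15, 0.13 and 0.32, with 2 of 13 genes, Cd3g and Cd28, called higher. Over all features 3.09% were called higher and 4.45% lower. The mitotic median minus the B cell median was -0.28, -0.08, 0.48 and 0.18 in mice 1 to 4. Minus the T cell median it was -0.03, -0.27, 0.47 and -0.23, above 0 in mouse 3 alone.
The macrophage list had medians of -0.27, -0.85, -1.20 and -0.79, lowest in mouse 3, with 6 of 10 genes called lower. Of 8 dendritic cell genes 4 were called lower. The share of all features called lower was 4.45%.

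**Figure D4:**
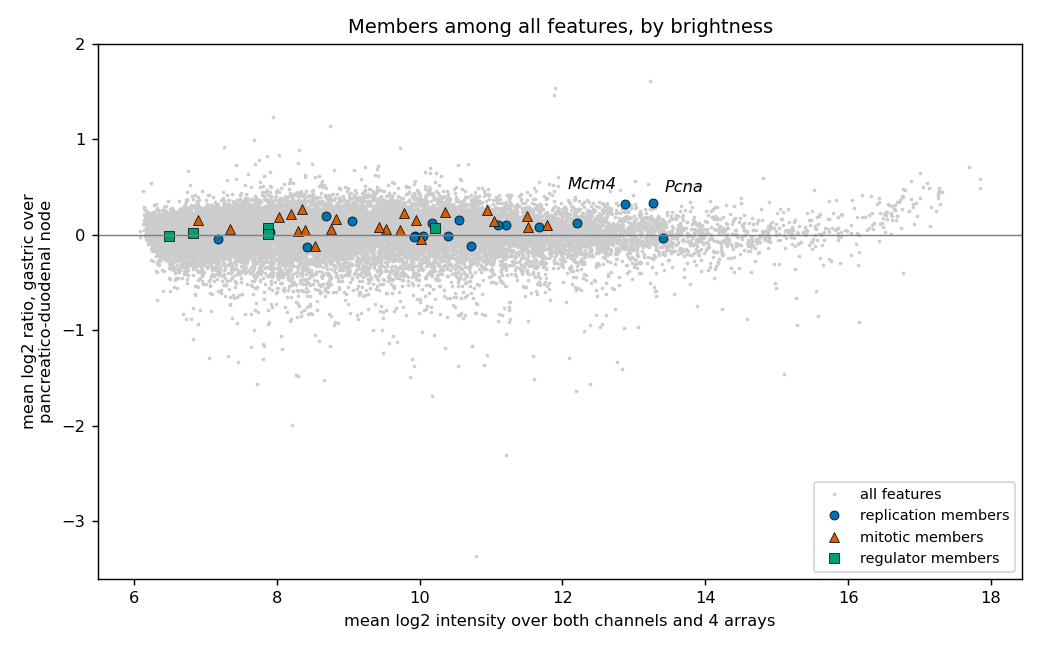
Mean log2 ratio of gastric over pancreatico-duodenal node (y axis) against mean log2 intensity over both channels and 4 arrays (x axis). Grey points are all 21320 features and coloured symbols the 46 measured members. Pcna and Mcm4 are among the brightest members, and no member has a mean below -0.2.

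The 2 called genes were among the 3 brightest members. Pcna had a mean log2 intensity of 13.3 and Mcm4 of 12.9, and Mcm6, the brightest at 13.4, had a mean log2 ratio of -0.03. In the intensity bins used, the median ratio of the members ran from 0.02 in the dimmest bin, with 3 members, to 0.15 in the brightest that held any, with 2. The median of all features in those bins was 0.03 and 0.00. Several probes were kept for 12 members, and in 8 of these they shared a sign. The exceptions are E2f1, Tyms, Cenpe and Ccne2, described above.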

How the data were processed

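Both pancreatic nodes of 4 mice were compared on 4 two-colour Agilent arrays on 1 slide, scanned together. The scanner files, made with Agilent Feature Extraction 10.2.1.3 per the file headers, hold mean and background intensity values for 45018 spots in both channels. The deposited files also hold the authors' log10 ratio of processed signals, background-subtracted and dye-normalized by that software, per the file headers. The deposited series table holds log2 ratios, Cy5 over Cy3, equal to the processed ratio of a probe's spots within 5.1e-05.

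Mean intensities were corrected by normexp (offset 50) and normalized by loess in limma 3.58.1 (R 4.3.3, data.table version 1.17.8). Control and outlier-flagged spots had weight 0 and were then left out. Spots of the same probe were averaged (41174 probes). Kept were 27603 probes that stood well above background on 3 or more of the 4 arrays within 1 channel. Names came from accessions through a RefSeq table (GRCm38.p6), which named 24844 probes. The brightest kept probe stood for a gene, giving 21320 features. Means over mice were tested against 0 with lmFit and eBayes, Benjamini-Hochberg adjusted, at 0.05, two-sided. Each array pairs both nodes of the same mouse.

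The members, lists, motif words and promoters shown were chosen with earlier results of these data known. Named were called members, the 3 highest and 3 lowest means per role, members whose probes differ in sign, and the called or the 2 brightest genes of cell cycle lists. Other named genes were chosen after their values were seen. Steps were checked on simulated data. Alternatives are given in the closing section.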

Additional observations from a re-analysis of the deposited data

Results flagged for a closer look

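In 4 of 67 results examined the 4 mice held 1 that stood apart, by the gap to its nearest neighbour as a share of the whole range, beyond Dixon's 95% critical value. Chance flags about 1 in 20 such groups when they are independent. These results share the same 4 arrays, and the role medians are built from the members. The count of 4 and the mouse they share are therefore not read against that rate. In each of the 4 the mouse apart was mouse 3. The share was 0.84 for Tpx2, a spindle assembly factor, and 0.859 for Prc1, which bundles microtubules at the central spindle. These were 2 of the 46 members, and both had mouse 3 above the others. The share was 0.906 for the difference of the replication and mitotic medians, and 0.861 for the median of the dendritic cell list, both with mouse 3 below the others.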

How the results depend on the processing

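The count of members called higher, 2, was 0 with normexp offset 0, with the scanner software's processed ratio and with the authors' series table, and ranged from 0 to 2 when each mouse was left out in turn. It was 39 with median centring of each array in place of loess, which put the median of all features at 0.32, and 13 with centring on the tested features, a setting added after seeing the data. The count called lower, 0, became 1 with the latter, and the gene was Ccne2 at -0.46. With median centring the replication and mitotic medians averaged 0.55 and 0.53, and the signs of Aurka (0.46), Fen1 (0.47), Mcm2 (0.48), Mcm3 (0.48), Mcm6 (0.63), Tk1 (0.41) and Tyms (0.50) were reversed, as was Mcm6 (0.32) with centring on the tested features. These 8 reversals are of genes called under that setting. Counting members not called as well, 10 means turned sign with median centring and 11 with centring on the tested features. In the unpaired fit, with no replicate block, 1 member was called higher, Pcna. Of 18 alternatives, the call was lost in 6 for Pcna and 7 for Mcm4, in 3 for each of Cdkn1a, Cdkn1b and Cdkn2b, in 4 for Cdkn2a and in 8 for each of Btg1 and Ccng2. Scaling the arrays to a common spread, over all spots or (added after seeing the data) over the kept features, left 2 members called higher.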
